A study of Populus tremula x Populus alba with 3 samples.

Results

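Ribosomal protein and translation genes of poplar were selected by words of their annotation (ribosomal, ribosome, translation or initiation factor, aminoacyl-tRNA synthetase and the like), and 39 of the 577 genes in the deposited lists qualified. The plants were of INRA clone 717-1B4, a cross of Populus tremula x Populus alba, and comprised 2 RNA interference lines against PtaDML10, KD2 and KD5, and wild type (WT). DML10 is a member of the DEMETER-like DNA glycosylases, which excise 5-methylcytosine. All plants grew for 4 weeks under 16 h light at 21 °C, then 12 weeks under 8 h light at 19 °C, then 4 weeks under 8 h light at 4 °C. Per genotype, 15 apical buds from 15 plants were taken before bud break and 1 bisulfite library is given, so there are 3 libraries, both lines share the WT library, and no methylation value below has a replicate error.

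A gene is on the deposited lists when it passed the authors' thresholds both for higher methylation in the knockdowns and for a change in expression. There are 6 of them, for the promoter and for the transcribed region in each of the CG, CHG and CHH contexts, where H is any base but G. Expression is given as 1 logFC per gene, with logCPM, a measure of read abundance that is not corrected for transcript length, and FDR, the false discovery rate. Every listed gene has an FDR below 0.05. The tables state neither the log base nor the direction of logFC, which is read here as log2 and described as negative or positive only. The methylation differences run as WT minus knockdown, so a negative logFC need not mean lower expression in the knockdowns. Depth and coverage are unknown, and no level of PtaDML10 is available here to check the lines. Of 7 shoot meristem genes looked up, STM and KNAT6 were among the listed genes, but lists of changed genes cannot show what tissue was sampled.

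Ribosomes translate messenger RNA into protein, and each is built from a small subunit that reads the message and a large subunit that joins amino acids. Plant cells make cytosolic ribosomes and, separately, bacterial-type ribosomes in plastids and mitochondria, most of whose proteins are encoded in the nucleus. Initiation and elongation factors load and drive the ribosome, and synthetases charge the transfer RNAs. In plants, ribosomal protein genes come in small families of near-identical copies, and their expression is generally high in growing tissue such as the shoot apex.

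By their Arabidopsis counterparts, the 39 genes comprised 21 proteins of the cytosolic large subunit, 8 of the cytosolic small subunit, 6 of the plastid ribosome and 4 translation factors. The plastid genes were 5 of the large and 1 of the small subunit. No aminoacyl-tRNA synthetase gene and no mitochondrial ribosomal protein gene was among the listed genes by these words (0 of 577 in each case). The 39 genes matched 33 Arabidopsis loci, 6 of which had 2 poplar copies. Compartments and short names such as RPL19 follow those loci, since the tables mostly give a protein family only.

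A negative logFC was listed for 35 of the 39 genes (89.7%), against 294 of all 577 listed genes (51.0%). The other 538 listed genes were split nearly evenly, with 259 negative (48.1%). The median logFC in the authors' deposited tables was -0.86 for the 39 genes, against 0.78 for the other listed genes and -0.63 for all 577, and with both signs so common the medians of the other and of all listed genes fall at the edge between them. The 35 negative genes ran from -1.74 to -0.62 with a median of -0.91, against a median of -0.86 for all negative listed genes. An absolute logFC of at least 1 was listed for 14 of the 39 (35.9%), against 47.8% of all listed genes. The median absolute logFC was 0.91, and 0.99 over all listed genes.

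**Figure D1:**
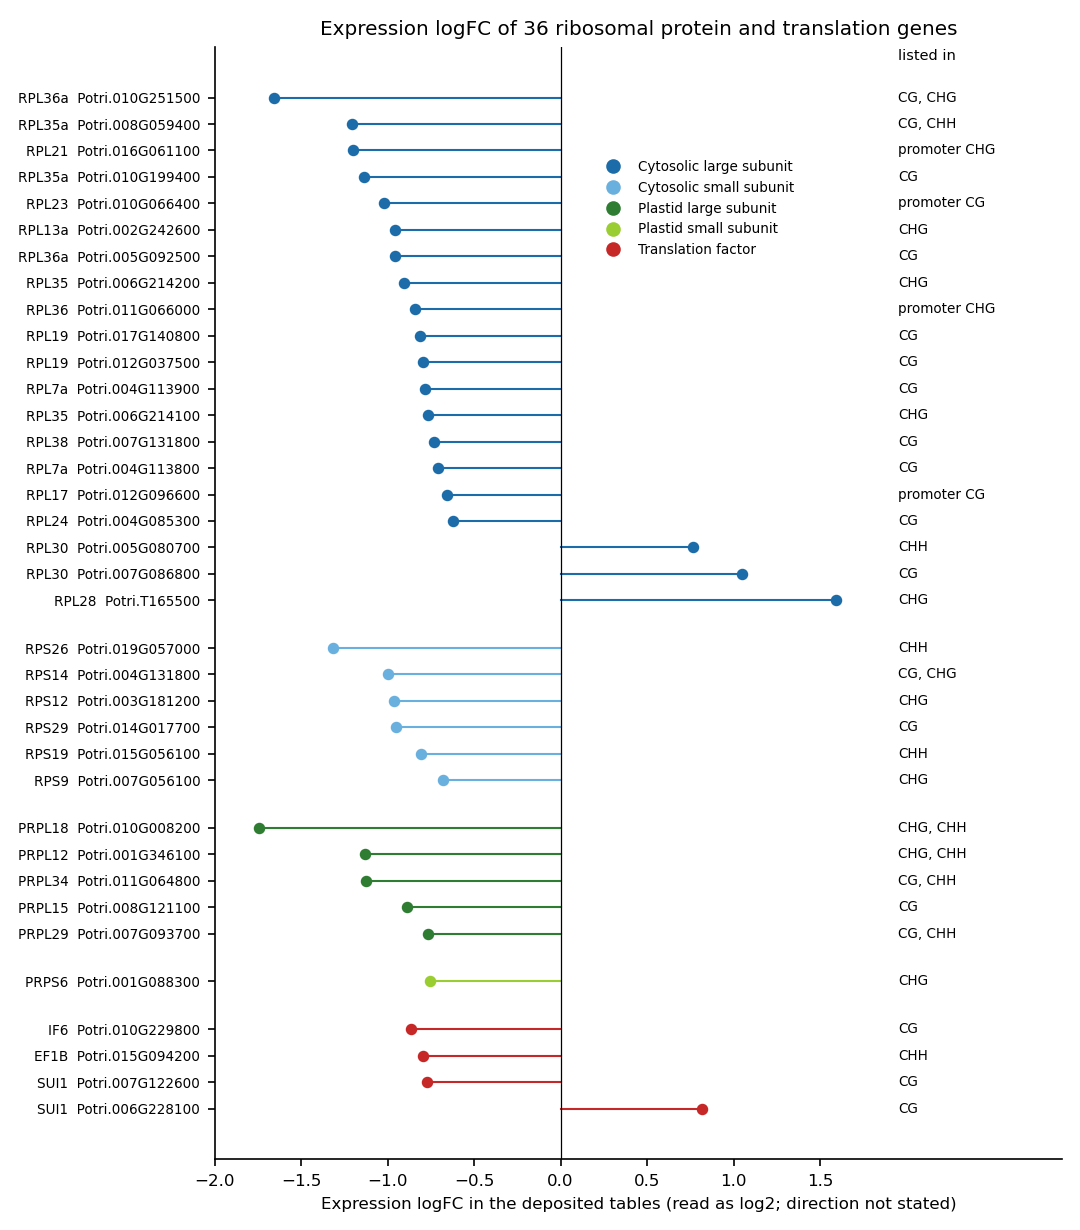
Expression logFC (x axis, read as log2) of 36 of the 39 genes (rows), coloured by ribosome compartment and subunit, with the list or lists that name the gene at the right (contexts alone mean the transcribed region). All cytosolic small subunit and plastid genes shown lie left of 0, and 4 genes lie right of it.

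Read abundance moved with this sign. In the highest quintile of listed genes by logCPM (6.33 to 10.01), 26 of 27 ribosomal protein and translation genes (96.3%) had a negative logFC, against 93.1% of all 116 genes in that quintile and 82 of its 89 other genes (92.1%). In the next quintile (5.17 to 6.32) the counts were 7 of 9 (77.8%), against 69 of 106 other genes (65.1%). The remaining 3 genes lay lower, at logCPM 4.14 to 4.84, and 2 of them were negative. The median logCPM of the 39 genes was 7.29, against 4.59 for the other listed genes. Among the 20 listed genes of highest logCPM, 10 belonged to this group, and all 20 had a negative logFC. Within the highest quintile the negative members ran from -1.66 to -0.62 with a median logFC of -0.93, and the 82 other negative genes from -1.59 to -0.62 with a median of -0.78.

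**Figure D2:**
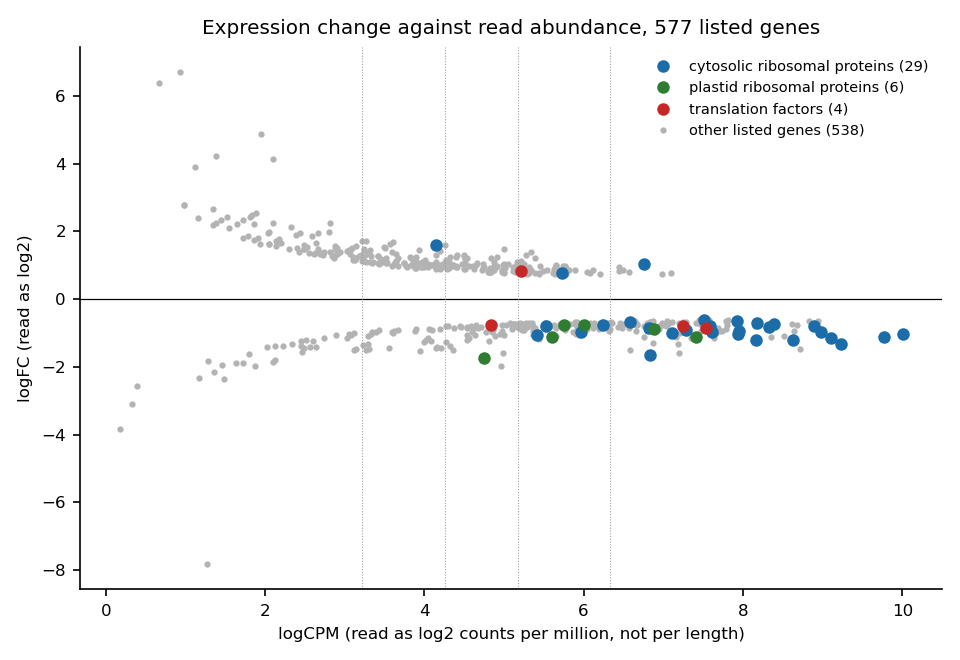
Expression logFC (y axis) against logCPM (x axis) for all 577 listed genes, with the 39 ribosomal protein and translation genes in colour and dotted lines between quintiles of logCPM. The coloured points gather at the right, where 93.1% of the genes in the highest quintile lie below 0.

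**Figure D3:**
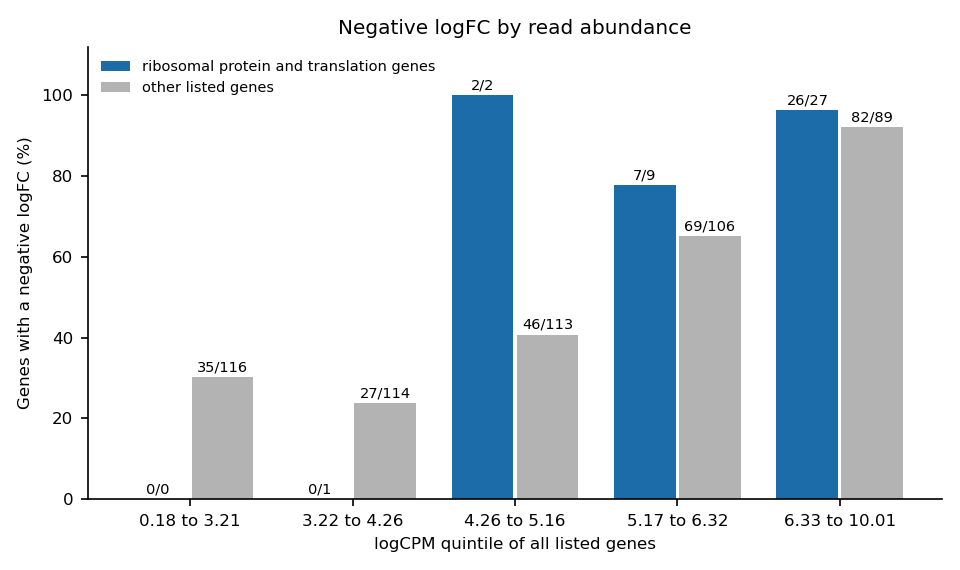
Share of genes with a negative logFC (y axis, percent) by quintile of logCPM (x axis), for ribosomal protein and translation genes and for the other listed genes, with counts above the bars. The 2 kinds of gene are at 26 of 27 and 82 of 89 in the highest quintile, and the 3 lower quintiles hold only 3 of the 39 genes.

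These genes were also short. The 33 with a single gene model and a transcribed region entry spanned 1436 to 4432 bases, introns included, with a median of 2567, against a median of 4367 for 473 other genes. In the shortest quintile of genes (780 to 2546 bases), 13 of 15 members were negative, against 51 of 87 other genes (58.6%). In the next quintile (2547 to 3626 bases) these counts were 12 of 13, against 46 of 88 (52.3%). The part of read abundance or length in the common sign was not tested.

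In the cytosolic large subunit, 18 of 21 genes had a negative logFC, with a median of -0.81 over the class. Of the 21 genes, 17 were in the highest quintile of logCPM, where 93.1% of all listed genes were negative. The most negative was an RPL36a gene, Potri.010G251500 (chromosome 10, 22331423 to 22333968), with a logFC of -1.66, a logCPM of 6.83 and an FDR of 3.46e-12 in the authors' deposited tables. RPL36a is a zinc-binding protein near the exit site for transfer RNA, where the yeast protein carries cycloheximide resistance mutations. Its FDR ranked 2 among the 577 listed genes. The other RPL36a gene, Potri.005G092500, had -0.96 in the authors' deposited tables. RPL35a followed with 2 copies of one Arabidopsis locus, Potri.008G059400 (chromosome 8, 3573448 to 3576014, logFC -1.21, FDR 7.09e-07) and Potri.010G199400 (logFC -1.14, FDR 3.07e-06), in the authors' deposited tables. RPL21 (Potri.016G061100) had -1.20 and an FDR of 6.17e-07 in the authors' deposited tables. These 3 genes had a logCPM of 8.16, 9.10 and 8.62, in that order.

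RPL23 (Potri.010G066400), which lies at the face between the subunits where IF6 binds, had the highest logCPM of all 577 listed genes, 10.01, and its logFC was -1.02 with an FDR of 4.11e-05, per the authors' deposited tables. RPL13a (Potri.002G242600) had -0.96 in the authors' deposited tables. The 2 RPL35 genes, whose protein sits at the exit of the peptide tunnel, had -0.91 (Potri.006G214200) and -0.76 (Potri.006G214100) in those deposited tables. RPL36 (Potri.011G066000) was listed there at -0.84, with a logCPM of 6.82 and an FDR of 0.00309. RPL19 forms a bridge to the small subunit, and its 2 genes had -0.81 (Potri.017G140800) and -0.80 (Potri.012G037500) in the authors' deposited tables. The 2 RPL7a genes had -0.78 (Potri.004G113900) and -0.71 (Potri.004G113800) there. RPL38 (Potri.007G131800) had -0.73, and RPL17 (Potri.012G096600), which lines the peptide tunnel, -0.66 (logCPM 7.92, FDR 0.0299) in the authors' deposited tables. RPL24 (Potri.004G085300), another bridge protein, came last of the negative genes at -0.62 (FDR 0.0475) in those tables.

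The 3 large subunit genes with a positive logFC encode RPL28 and RPL30. RPL28 (Potri.T165500, scaffold_861, 10877 to 14649) had 1.59 with an FDR of 4.65e-05 in the authors' deposited tables. Its logCPM of 4.14 was the lowest of the 39 genes. RPL30, whose yeast counterpart binds its own transcript and restrains its splicing, had 2 genes in the authors' deposited tables. They are Potri.007G086800 (chromosome 7, 11282089 to 11284046), with a logFC of 1.05, a logCPM of 6.76 and an FDR of 3.97e-04, and Potri.005G080700 (chromosome 5, 5939609 to 5942022), with 0.77, 5.72 and 0.0318. Potri.007G086800 was the 1 positive gene of the 27 in the highest quintile of logCPM.

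All 8 genes of the cytosolic small subunit had a negative logFC, with a median of -0.98. RPS26 (Potri.019G057000, chromosome 19, 8859383 to 8861384), a protein at the channel where the message leaves the ribosome, had -1.32 with a logCPM of 9.23 and an FDR of 1.98e-08 in the authors' deposited tables. RPS14 (Potri.004G131800, chromosome 4, 14888948 to 14891946), of the platform of the subunit, had -1.00 with a logCPM of 7.12 and an FDR of 1.65e-04 there. In the authors' deposited tables RPS12 (Potri.003G181200) had -0.96 and RPS29 (Potri.014G017700) -0.95. RPS19 (Potri.015G056100), needed to mature the small subunit in human cells, had -0.81, and RPS9 (Potri.007G056100), at the entry of the message channel, -0.68 in those tables. The 8 values span 0.64 on the log2 scale and all lie below 0. Of the 8 genes, 6 were in the highest quintile of logCPM, where 93.1% of all listed genes were negative.

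The 6 plastid genes were all negative as well, against 51.0% of all 577 listed genes, with a median of -1.01. The lowest logFC of the 39 genes belonged to PRPL18 (Potri.010G008200, chromosome 10, 952527 to 953962), whose bacterial relative binds the small ribosomal RNA of the large subunit. It had -1.74 with a logCPM of 4.75 and an FDR of 9.09e-10 in the authors' deposited tables. PRPL12 (Potri.001G346100, chromosome 1, 35198780 to 35203175), of the stalk that recruits translation factors, had -1.13 with a logCPM of 7.41 and an FDR of 7.34e-06 in those tables. PRPL34 (Potri.011G064800, chromosome 11, 5933371 to 5935209) also had -1.13, with a logCPM of 5.60 and an FDR of 7.17e-05 in the authors' deposited tables. PRPL15 (Potri.008G121100) had -0.89 there. PRPL29 (Potri.007G093700, chromosome 7, 12048330 to 12051965) had -0.77 with a logCPM of 5.75 and an FDR of 0.0170. The small subunit gene PRPS6 (Potri.001G088300, chromosome 1, 6977049 to 6978919) had -0.76 with a logCPM of 6.01 and an FDR of 0.0165 in the authors' deposited tables. The median logCPM of the 6 plastid genes was 5.88, against 7.62 for the cytosolic genes. Only 2 of the 6 were in the highest quintile of logCPM, where 93.1% of listed genes were negative. PRPL34, PRPL29 and PRPS6 lay in the next quintile, where 66.1% of listed genes were negative. PRPL18 lay in the quintile below that, at 41.7%.

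Of the 4 translation factors 3 had a negative logFC, against 51.0% of all listed genes. IF6 (Potri.010G229800, chromosome 10, 21204899 to 21207909), which keeps the large subunit from joining the small one too early, had -0.86 with a logCPM of 7.54 and an FDR of 0.00161 in the authors' deposited tables. The EF1B subunit gene (Potri.015G094200, chromosome 15, 11555886 to 11558451), part of the factor that recharges elongation factor 1A with GTP, had -0.80 with a logCPM of 7.25 and an FDR of 0.00509 in those tables. Of the 2 SUI1 family genes, named for a yeast factor of start codon choice, Potri.007G122600 had -0.77 (logCPM 4.84, FDR 0.0329) and Potri.006G228100 had 0.82 (logCPM 5.21, FDR 0.0287) in the authors' deposited tables. The first lies on chromosome 7 (14062161 to 14065851) and the second on chromosome 6 (23914754 to 23917908), and they match different Arabidopsis loci, AT4G27130 and AT5G11900.

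Poplar copies of one Arabidopsis locus had the same sign in all 6 pairs. With 35 of the 39 genes negative, most pairs of any 2 of them share a sign. The negative genes also lay only between -1.74 and -0.62, which limits their differences. Copies among the other listed genes were not compared. The members of a pair differed by 0.02 (RPL19) to 0.28 (RPL30) on the log2 scale, and 5 pairs were negative in both copies. The RPL35 genes are neighbours with 3352 bases between them on chromosome 6, and the RPL7a genes have 8132 bases between them on chromosome 4. How reads that match several copies were counted is not given in the sources used here, so the values of such copies may not be independent.

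In the transcribed region, 35 of the 39 genes were listed. A CG region was listed for 20 of them (57.1%, against 74.0% of all 524 transcribed region genes). The counts were 13 for CHG (37.1%, against 34.0%) and 9 for CHH (25.7%, against 23.5%). Negative logFC made up 18 of 20 genes in CG, against 44.8% of all genes listed there. The counts were 12 of 13 in CHG, against 46.1%, and 8 of 9 in CHH, against 48.8%. The contexts share genes, and a difference in sign between them was not tested. More than 1 context was listed for 7 of the 35 genes (20.0%), against 26.0% of all transcribed region genes, and none of the 7 had all 3.

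Of those 7 genes, 4 encode plastid proteins. PRPL18 and PRPL12 were listed in CHG and CHH, and PRPL34 and PRPL29 in CG and CHH. The other 3 were RPL36a (Potri.010G251500, CG and CHG), RPL35a (Potri.008G059400, CG and CHH) and RPS14 (Potri.004G131800, CG and CHG). That is 4 of 6 plastid genes (66.7%) and 3 of 25 cytosolic ones (12.0%). For CHH these shares were 4 of 6 (66.7%) and 4 of 25 (16.0%). With 6 plastid genes these are counts, and no test was made.

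**Figure D4:**
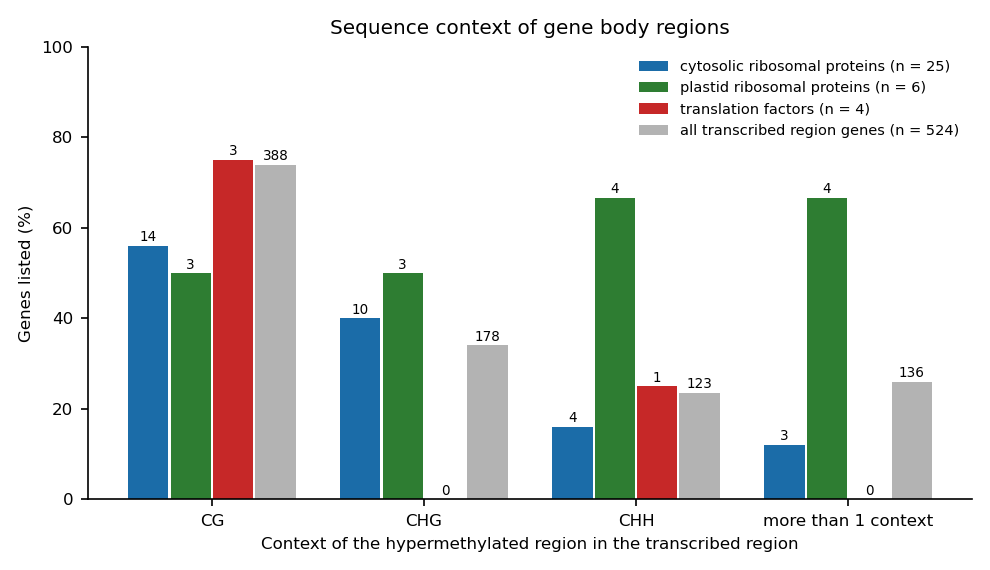
Share of genes listed in the transcribed region (y axis, percent) with a hypermethylated region in each context (x axis), for cytosolic and plastid ribosomal proteins, translation factors and all transcribed region genes, with counts above the bars. CG is the most frequent context for cytosolic genes (14 of 25), and 4 of 6 plastid genes are listed in CHH and in more than 1 context.

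The tables name coding segments and UTRs beside each gene, read here as those that a region overlaps. No coordinates or size of the regions themselves were used. Coding sequence of the gene itself was listed for 22 of the 35 genes (62.9%, against 67.9% of all 524), 3' UTR for 10 (28.6%, against 33.2%) and 5' UTR for 5 (14.3%, against 16.0%). None of these was listed for 9 genes (25.7%, against 14.9%). Of the 22 genes with coding sequence, 18 had only segments after the first. This was not counted for the other listed genes, so it cannot be called a trait of this group.

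At the start of the gene, RPL35a (Potri.008G059400) had both 5' UTR segments and coding segments 1 and 2 listed, in CG and CHH alike. The positive RPL30 gene Potri.007G086800 also had both 5' UTR segments and coding segments 1 and 2 listed, in CG. For RPL36a (Potri.010G251500) the 5' UTR was listed in CG and no exon in CHG. Of these 3 genes with a region over the 5' UTR, RPL35a and RPL36a had a negative logFC. The other 2 genes with a 5' UTR entry were the translation factors IF6 and SUI1 (Potri.007G122600), both in CG and both with a negative logFC. The RPL30 gene was thus the only gene of the 5 with a positive logFC. Signs over all listed genes with a 5' UTR entry were not counted.

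At the end of the gene, the 3' UTR was listed together with a late coding segment for PRPL18 (segment 3), RPL13a and RPS12 (segment 4), RPS26 (segment 5) and both RPL7a genes (segment 7, with segment 6 as well in Potri.004G113800). The 3' UTR alone was listed for PRPL34 in both contexts and for RPS29. RPS14 had coding segments 2 and 3 listed in CG and segments 5 and 6 in CHG. No exon was listed for PRPL12, PRPL15, PRPL29, RPS19, both RPL35 genes, RPL28 and the positive SUI1 family gene. The row of RPL24 names coding sequence of a second gene model, Potri.004G085200, and no exon of RPL24. The row of RPL38 likewise names a second model, Potri.007G131900, beside coding segment 2 of RPL38 itself. For RPL24 and RPL38 the methylation and the reads may therefore belong to either gene. Among the 6 pairs of copies, the RPL35 pair shared CHG with no exon listed, and the RPL7a pair shared CG over coding segment 7 and the 3' UTR. The RPL19 pair shared CG over coding segments 4 (Potri.017G140800) and 3 (Potri.012G037500), and the RPL35a pair shared CG over coding segment 2. The RPL30 pair was listed in different contexts.

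Promoter regions were listed for 4 genes (10.3%, against 14.4% of all listed genes), all of the cytosolic large subunit and none of them listed for the transcribed region. All 4 had a negative logFC, against 55 of all 83 promoter genes (66.3%), and all 4 lay in the highest logCPM quintile, where 93.1% of listed genes were negative. Each window is 2000 bases long and lies on the chromosome of the gene identifier. RPL23 (chromosome 10, 9371459 to 9373458) gained 30.4 percentage points of CG methylation over WT in line KD2, and 20.8 points in line KD5, per the authors' deposited tables. RPL17 (chromosome 12, 12276445 to 12278444) had CG gains of 15.7 points (KD2) and 21.7 points (KD5) in the same tables. The RPL23 gain ranked 4 of 49 CG promoters in KD2 but 34 of 49 in KD5, and that of RPL17 ranked 44 and 33.

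In CHG, the RPL36 promoter (chromosome 11, 6049426 to 6051425) had gains of 17.9 points (KD2) and 24.4 points (KD5), ranks 19 and 13 of 30, per the authors' deposited tables. The RPL21 promoter (chromosome 16, 4269268 to 4271267) had gains of 17.1 points (KD2) and 20.0 points (KD5) there, ranks 22 and 19. The medians of the 30 CHG promoters were 18.9 points (KD2) and 21.8 points (KD5), and those of the 49 CG promoters 19.4 points (KD2) and 25.6 points (KD5). Gains were thus larger in KD5 at 3 of the 4 promoters and larger in KD2 at RPL23, by 9.60 points. The medians over all listed CG and CHG promoters were larger in KD5 as well, so the 3 follow the listed promoters in general. RPL23 in KD2 and RPL36 in KD5 lay above the median of their table, and the other 6 gains below it. The smallest gain in any promoter table was 15.0 points, so the gains describe only the part of the range above that. With 1 library a line, the differences between lines compare those libraries.

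**Figure D5:**
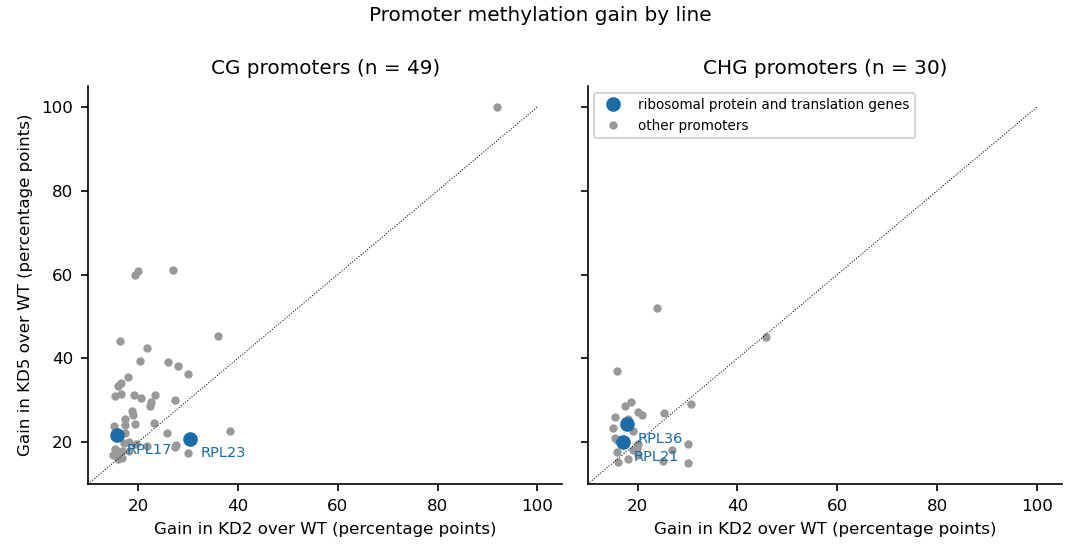
Methylation gain over WT in KD5 (y axis) against KD2 (x axis), in percentage points, for the promoters listed in CG and in CHG, with the 4 large subunit genes named and a dotted line of equal gain. RPL17, RPL36 and RPL21 lie above the line, and RPL23 lies below it (KD2 30.4 points, KD5 20.8 points).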

How the data were processed

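Genomic DNA of apical buds was bisulfite sequenced, and Bismark and methylKit are named in the submitters' processing notes; their versions and the build were not given in the sources used here. Coordinates are those of the authors' tables, whose gene models carry a Phytozome tag. The values are the authors' own comparisons. Promoter methylation differences were deposited in percentage points. They are negative under titles that call the regions hypermethylated, so their sign was turned to give gains. The logFC and logCPM were deposited without a base and read as log2. The p-value and FDR of expression were deposited by the authors, and how they were made is not stated. A second set of gene coordinates in the transcribed region tables, without explanation, was not used.

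Genes were counted once over the 6 tables. Features were credited to a gene only where their identifier names it. Medians and shares are set beside the same over all listed genes. Quintiles (5 groups of about equal size) of logCPM were taken over all listed genes. Those of length were taken over the 506 genes with a single gene model and a transcribed region entry. No tests were run. Members, lists and comparisons were chosen with earlier results of these data known. Of the 39 members, 36 are named and 3 are counted but not reported here singly; logCPM, FDR and position are given for those named among the 3 per class with the largest absolute logFC and for positive, promoter and multi-context genes. Promoter motifs were not analysed here. The counting was checked on simulated data. Python 3.11.15, pandas 2.3.3 and scipy 1.17.1 were used.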

Additional observations from a re-analysis of the deposited data

How the results depend on the processing

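The share of negative genes, 89.7%, stayed between 85.7% and 92.6% in 8 alternatives. Planned ones were an absolute logFC of at least 1, an FDR below 0.005, annotation words only, core proteins only and 1 gene per Arabidopsis locus. Added after seeing the data were those with 3 elongation factor Tu genes, without 2 genes whose row names a second model, and without copies of a shared locus. Over all listed genes, 95 of 276 were negative with an absolute logFC of at least 1. With an FDR below 0.005 it was 118 of 183, against 294 of 577 unfiltered. The median logFC of -0.86 was -1.13 with an absolute logFC of at least 1 and -0.75 as a mean, which 4 positive genes raise; for cytosolic ribosomal proteins the median was -0.91 and the mean -0.73. Requiring a promoter gain of 1.5 times the smallest in both lines left 0 of the 4 promoters. That cut-off was 22.5 points in CG and 22.6 points in CHG. The KD2 medians over all listed promoters, 19.4 and 18.9 points, lay below it, so most listed promoters of these contexts fail it too. The core filter removed no gene, and gene name words alone matched none, so that setting gave no value. The core and annotation word settings therefore hold the same 39 genes as the main result and could not differ from it. The share listed in CG of the transcribed region was 51.3% of 39 genes and 42.9% with an absolute logFC of at least 1. No paired analysis was possible because each genotype is 1 library and no test was run. Unknown depth leaves the precision of every gain unknown.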

Other observations

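Elongation factor 1A, which carries charged transfer RNAs to the ribosome, is annotated in the tables as elongation factor Tu and so fell outside the words used. Its 3 listed genes were picked after their values were seen. In the authors' deposited tables Potri.010G219500 had a logFC of -1.10 (logCPM 8.52, listed in CHG and CHH), Potri.010G218700 had -0.94 (logCPM 7.71, CG) and Potri.008G042500 had -0.67 (logCPM 7.25, CG), each in the transcribed region. All 3 were in the highest quintile of logCPM. With them, 38 of 42 genes had a negative logFC (90.5%).

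A search of the listed genes for words of ribosome assembly, release factors, poly(A) binding, nascent chain and signal recognition particle proteins and the TOR kinase found 1 gene outside the 39. It is a plastid-type ribosomal RNA processing gene of the RimM family, Potri.001G353800 (chromosome 1, 36142312 to 36149696), with a logFC of 0.93, a logCPM of 4.74 and an FDR of 0.0167 in the authors' deposited tables, listed in CG and CHG. Its sign is opposite to that of the 6 plastid ribosomal protein genes. It is 1 gene, and in its logCPM quintile (4.26 to 5.16) only 41.7% of listed genes were negative.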
